A study of Mus musculus with 10 samples.

Results

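Metabotropic glutamate receptors are G protein-coupled receptors that sense glutamate, and 7 of their genes, *Grm2*, *Grm3*, *Grm4*, *Grm5*, *Grm6*, *Grm7* and *Grm8*, were followed through single-nucleus RNA-sequencing of the mouse paraventricular thalamus (PVT) and the regions around it. They were picked by symbol as 7 of the 33502 genes in the count matrix, and their unique molecular identifiers (UMIs, each a captured RNA molecule) were summed in every one of 10 libraries, first by cell type and then within neurons. *Grm5* belongs to group I, whose receptors act through Gq, phospholipase C and calcium release and lie mostly at the postsynaptic side, tied to Homer and Shank scaffold proteins. *Grm2* and *Grm3* make up group II, and *Grm4*, *Grm6*, *Grm7* and *Grm8* belong to group III. Both of these groups act through Gi/o proteins that inhibit adenylyl cyclase, and many of their members sit on axon terminals and lower transmitter release, while the protein from *Grm3* is also known from glia and that from *Grm6* from the ON bipolar cells of the retina.

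The nuclei came from C57BL/6J mice aged 12 weeks, with no genetic change or treatment in any group. They were deposited as 4 libraries labelled as biological replicates (biol rep 1 to 4) and 6 labelled female (female 1 to 6), and the deposited metadata give Male for the nuclei of the first set. The methods of the study describe punches of 4 mice pooled per sample for 4 biological replicates and do not describe the female samples apart, so the library was taken as the unit of replication. Of 20503 nuclei, 13002 lay in the biol rep libraries and 7501 in the female ones, with 7568267 to 55956635 UMIs per library in the first set and 5119927 to 12891409 in the second. The authors' cell type names divided the nuclei into 10410 neurons, 5302 astrocytes, 2462 oligodendrocytes, 993 microglia, 473 oligodendrocyte precursor cells (OPCs), 469 ependymal cells, 215 endothelial cells and 179 fibroblasts. The summed CPM of 27 of 27 marker genes was highest in the cell type it marks. Among 20457 barcode sequences, 46 occurred in more than 1 library.

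One library stood apart. RNA of the neuronal markers *Rbfox3*, *Snap25* and *Syt1* in nuclei that are not neurons was highest in biol rep 4 in 6 of 7 non-neuronal types, for example at 1508 CPM (UMIs of a gene per 1000000 UMIs of the sum) in OPCs against 327 to 820 in the other libraries. In neurons themselves biol rep 4 had 2810 CPM of these markers, inside the range of the others (2611 to 2974). Its part in each difference was measured by leaving it out, and the values that change a call are given beside the result.

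The 7 genes differed widely in how much RNA was captured. Over all nuclei *Grm7* had 359623 UMIs, *Grm5* 121089, *Grm8* 56304, *Grm3* 36389, *Grm4* 15523 and *Grm2* 4294, whereas *Grm6* had 9. The genes are of very different size, and no source used here states whether reads in introns were counted, so a comparison between genes was made per length of gene. On GRCm38 with GENCODE M21, *Grm7* spans 921.6 kb (chr6:110645581-111567230, plus strand), *Grm8* 860.1 kb (chr6:27275119-28135178, minus strand) and *Grm5* 550.7 kb (chr7:87584168-88134907, plus strand), while *Grm2* spans 12988 bases (chr9:106643095-106656082, minus strand). The others were *Grm3* with 239.6 kb (chr5:9485541-9725170, minus strand), *Grm4* with 99.0 kb (chr17:27422387-27521403, minus strand) and *Grm6* with 15.5 kb (chr11:50850685-50866208, plus strand). Neuronal CPM per 100 kb of gene span was 351.9 for *Grm7*, 351.7 for *Grm2*, 209.0 for *Grm5*, 139.0 for *Grm4*, 61.89 for *Grm3*, 57.64 for *Grm8* and 0.84 for *Grm6*. Per kb of exon the order changed to 551.0 for *Grm7*, 112.3 for *Grm5*, 50.08 for *Grm8*, 48.64 for *Grm3*, 23.02 for *Grm4*, 9.334 for *Grm2* and 0.02405 for *Grm6*. *Grm6* was last on both scales, whereas *Grm2* was level with *Grm7* per span and far below it per kb of exon. No protein coding gene overlaps any of the 7 genes in this annotation.

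For *Grm3*, *Grm7* and *Grm8*, whose levels below differ between cell types and between neuron groups, a stretch upstream of the gene is shown. It comes from RefSeq (GRCm38.p6), 5′ to 3′ on the gene's own strand and outside the gene span given above. Capitals mark the GC box GGGCGG:
Grm3 (chr5:9725353-9725602, minus strand): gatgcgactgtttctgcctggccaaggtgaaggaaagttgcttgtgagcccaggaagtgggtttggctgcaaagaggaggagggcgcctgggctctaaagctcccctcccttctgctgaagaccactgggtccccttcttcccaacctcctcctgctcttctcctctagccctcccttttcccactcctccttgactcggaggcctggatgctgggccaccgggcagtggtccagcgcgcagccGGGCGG
Grm7 (chr6:110645262-110645511, plus strand): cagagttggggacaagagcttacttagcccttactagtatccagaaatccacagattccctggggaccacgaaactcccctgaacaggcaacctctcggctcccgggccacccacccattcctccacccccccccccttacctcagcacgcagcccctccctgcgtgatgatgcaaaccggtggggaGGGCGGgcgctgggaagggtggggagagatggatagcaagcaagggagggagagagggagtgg
Grm8 (chr6:28135179-28135396, minus strand): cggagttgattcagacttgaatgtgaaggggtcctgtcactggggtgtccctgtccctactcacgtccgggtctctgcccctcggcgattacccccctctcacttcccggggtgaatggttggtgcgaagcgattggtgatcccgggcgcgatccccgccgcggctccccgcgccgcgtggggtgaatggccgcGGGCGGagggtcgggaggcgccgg
Each stretch held the GC box once on the gene's strand and had no CCGCCC, its form on the other strand. Of 32851 such windows over all genes, 10756 (32.7%) held one or the other within 250 bases upstream. CG pairs numbered 24 in the 218 bases of *Grm8*, 8 in the 250 bases of *Grm3* and 8 in those of *Grm7*, against a median of 6 per window. The match is a description of these letters and says nothing of which factors bind there.

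Across the 8 cell types, *Grm4*, *Grm5*, *Grm7* and *Grm8* were highest in neurons, *Grm3* was highest in oligodendrocytes and astrocytes, and *Grm5* reached the neuronal level in OPCs. Each cell type was tested against the mean of the other types with the library as a term, and a gene was called at a Benjamini-Hochberg adjusted p under 0.05 (edgeR's quasi-likelihood test over all 9842 genes that passed the filter on low counts) together with a log2 fold change beyond 0.5 in either direction. *Grm2* and *Grm6* did not pass the filter, which left 5 of the 7 genes and 40 gene and type pairs, of which 23 were called. In neurons 4 of 5 genes were higher and 0 lower, where 58.2% of all genes tested were called. Oligodendrocytes had 2 higher and 3 lower (46.7% of all genes called), astrocytes 1 and 2 (41.1%), OPCs 1 and 2 (33.4%), and microglia 0 and 4 (50.3%). Ependymal cells had 0 higher and 2 lower (45.9%), endothelial cells 0 and 1 (40.3%), and fibroblasts 1 and 0 (22.2%). Since calls were this frequent among all genes, the counts are given for the record and the sizes below describe the receptors. In such sums fewer nuclei with RNA of a gene and less RNA per nucleus cannot be told apart.

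**Figure D1:**
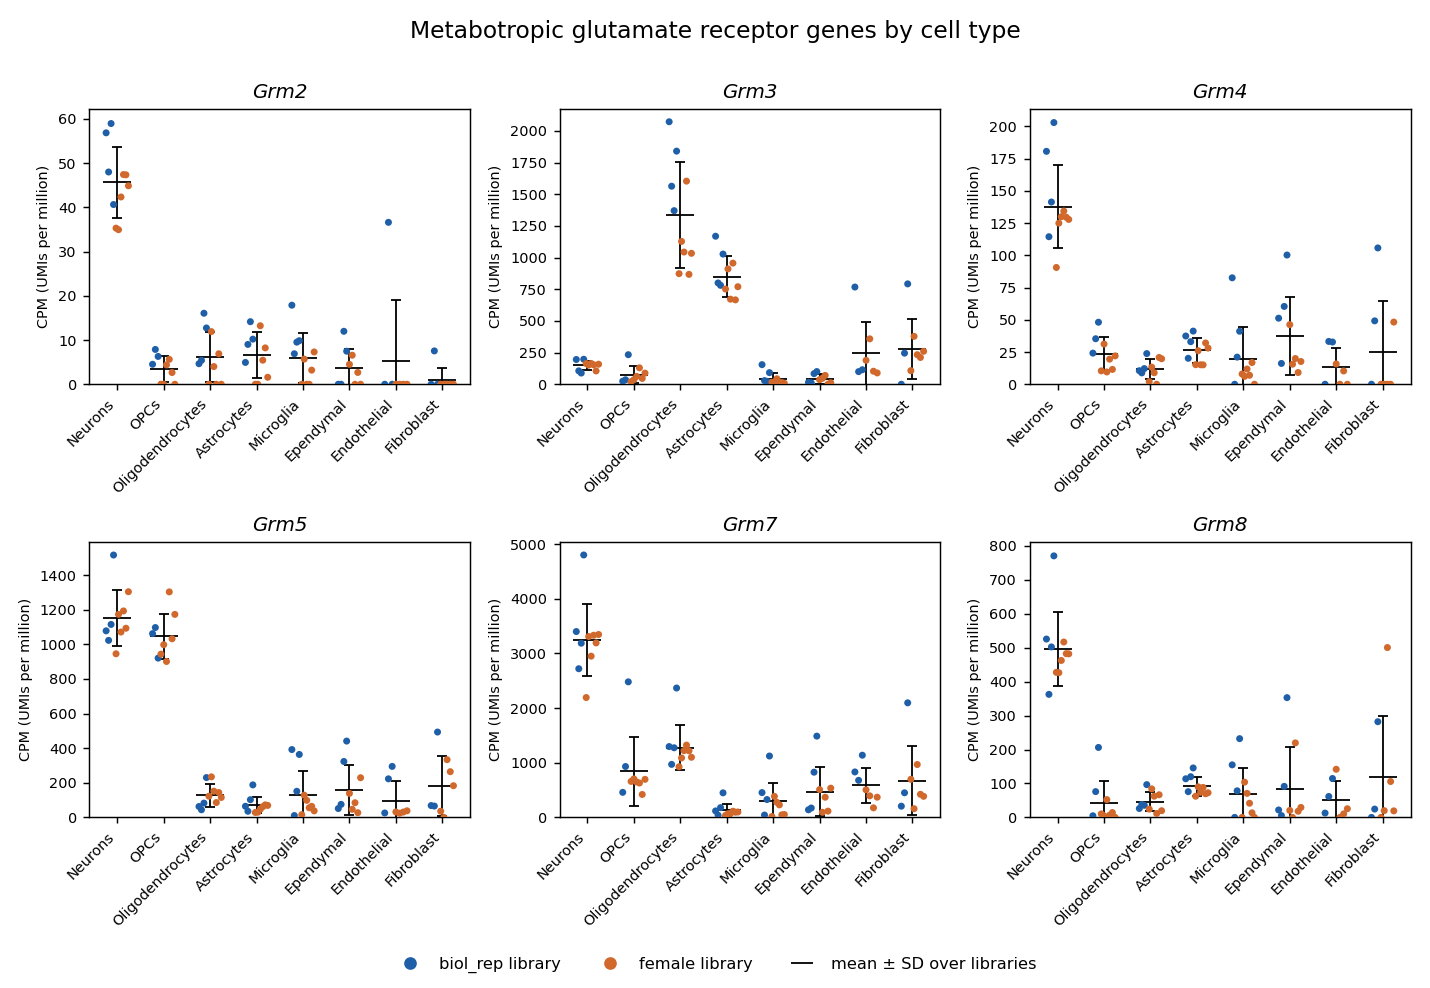
CPM of 6 receptor genes (y axis, TMM-normalised) in each of 8 cell types (x axis), with 1 point per library, biol rep libraries in blue and female libraries in orange, and the mean ± SD over libraries in black. *Grm3* is high in oligodendrocytes (mean 1340) and astrocytes (851), *Grm5* is high in neurons (1151) and OPCs (1048), and *Grm7* is high in neurons (3243) with a second level in oligodendrocytes (1279).

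*Grm5*, the group I gene, had CPM from 945 to 1516 in neurons over the 10 libraries (median 1104) and from 901 to 1303 in OPCs over 9 libraries (median 1032). In the other 6 types its mean lay between 70.0 ± 47.2 (SD, n = 10) in astrocytes and 181 ± 172 (n = 8) in fibroblasts, and the highest single library there had 493. The neuronal and OPC ranges overlapped almost entirely, and neither overlapped with any other type. Against the other types the log2 fold change was 2.94 ± 0.19 (SE) in neurons (adjusted p = 3.2e-23) and 2.85 ± 0.21 in OPCs (adjusted p = 1.8e-19), equal to 7.7-fold and 7.21-fold. Neurons were above OPCs in 7 of 9 libraries by a mean of 0.14 on the log2 scale, which an exact two-sided sign-flip permutation test over libraries did not separate (adjusted p = 0.241 over 42 such pairs of neighbouring levels, of which 8 passed at 0.05). Before normalisation the order of the means was turned, with 964 CPM in OPCs and 892 in neurons over 9 libraries. OPCs exceeded fibroblasts, the next type down, in 8 of 8 libraries (exact test, adjusted p = 0.0410).

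Nuclei of every type held some RNA of neuronal markers, with a summed 566 CPM in OPCs and 2781 ± 132 in neurons. If *Grm5* RNA in OPCs came at the ratio it has to *Rbfox3*, *Snap25* and *Syt1* in neurons, 186 CPM would be found, whereas the unnormalised value was 964 CPM and lay above that mark in 9 of 9 libraries. Elsewhere the same ratio gave 117 CPM against 110 seen in oligodendrocytes, 151 against 137 in microglia and 79.7 against 60.8 in astrocytes. In these types 3, 1 and 2 of 10 libraries lay above the mark. It was 157 against 107 CPM in endothelial cells and 176 against 143 in ependymal cells. In fibroblasts the mean lay above the mark, with 192 against 214 CPM and 3 of 8 libraries above. The part of neuronal RNA in these low *Grm5* counts was not tested. With every nucleus thinned to 1000 UMIs, 56.7 ± 4.95% of OPCs and 50.9 ± 4.33% of neurons had a *Grm5* UMI, against 7.13 ± 6.59% of microglia, which serve as the background (85.7%, 91.2% and 15.2% without thinning, at median depths of 3658, 11157 and 2168 UMIs). *Grm5* was lower in astrocytes (log2 fold change -1.85 ± 0.27), endothelial cells (-1.35 ± 0.39), microglia (-0.96 ± 0.29) and oligodendrocytes (-0.78 ± 0.27). Of these the call in oligodendrocytes did not hold without biol rep 3 (-0.59) or in female libraries only (-0.12). The calls in endothelial cells and microglia did not hold in nuclei up to 1% mitochondrial (-0.37 and -0.79) or in biol rep libraries only (-0.66 and -0.33).

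*Grm3*, the group II gene known from glia, ranged from 868 to 2073 CPM in oligodendrocytes (median 1249) and from 667 to 1169 in astrocytes (median 791). Neurons had 88.5 to 197 CPM (median 156), and the 2 glial types lay above neurons in every library. In the fit the log2 fold change was 3.30 ± 0.17 in oligodendrocytes (9.84-fold, adjusted p = 2.4e-29) and 2.59 ± 0.17 in astrocytes (6.02-fold, adjusted p = 6.3e-23). Although their ranges overlapped, oligodendrocytes exceeded astrocytes within each of the 10 libraries, by a mean of 0.62 on the log2 scale (exact sign-flip permutation test, adjusted p = 0.0273).

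After thinning to 1000 UMIs, 64.5 ± 5.88% of oligodendrocytes and 46.4 ± 5.02% of astrocytes had a *Grm3* UMI, and 11.2% of neurons did (82.9%, 73.9% and 53.8% without thinning). Microglia (log2 fold change -2.61 ± 0.29, adjusted p = 3.6e-12), ependymal cells (-2.34 ± 0.30, adjusted p = 2.8e-10) and OPCs (-1.56 ± 0.28, adjusted p = 3.6e-06) were lower, the last not called in biol rep libraries only (-1.61, adjusted p = 0.052) or in nuclei up to 1% mitochondrial (-1.004). The value in OPCs contrasts with that in oligodendrocytes, the lineage they give rise to, at 75.0 ± 68.9 against 1340 ± 419 CPM. Neurons were not called (-0.30 ± 0.20, adjusted p = 0.17), and 4 of 10 libraries were higher in neurons than in the mean of the other types. Neurons had 113 CPM of *Grm3* before normalisation against 5.6 at the astrocyte ratio to astrocyte markers and 3.35 at the oligodendrocyte ratio, above both in 10 of 10 libraries. In fibroblasts *Grm3* was called higher (0.76 ± 0.28, adjusted p = 0.04) with values from 0 to 793 CPM, and this call was lost without biol rep 4 (0.60, adjusted p = 0.14), female 2 (0.65) or female 5 (0.69).

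*Grm2*, the other group II gene, was highest in neurons, which held 4054 of its 4294 UMIs. Neurons were also the type with the most nuclei and the most UMIs per nucleus, so levels compare the types better. *Grm2* had 35.0 to 59.0 CPM in neurons (median 46.1), while means in the other 7 types lay between 0.943 and 6.68 CPM. The neuronal libraries did not overlap with those of any type but endothelial cells, where 8 UMIs in biol rep 3 gave 36.6 CPM. Neurons exceeded astrocytes, the next type, in 10 of 10 libraries (exact sign-flip permutation test, adjusted p = 0.0273).

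The group III gene *Grm7* was captured well outside neurons too. In neurons it ranged from 2193 to 4801 CPM (median 3250), in oligodendrocytes from 926 to 2367 (median 1220), in OPCs from 420 to 2480 (median 658) and in astrocytes from 35.4 to 449 (median 97.0). Oligodendrocytes lay below neurons within 10 of 10 libraries (1.37 lower on the log2 scale, exact sign-flip permutation test, adjusted p = 0.0273) and above OPCs in 8 of 9 (by 0.75, adjusted p = 0.0410 by the same exact test). Against the other types *Grm7* changed by 3.00 ± 0.18 on the log2 scale in neurons (7.99-fold, adjusted p = 3.2e-25), 1.40 ± 0.20 in oligodendrocytes (2.64-fold, adjusted p = 4.2e-09) and -2.73 ± 0.27 in astrocytes (6.62-fold lower, adjusted p = 1.9e-14). Oligodendrocytes and astrocytes therefore ranked in opposite directions for *Grm7* while both were high for *Grm3*.

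At the neuronal ratio to *Rbfox3*, *Snap25* and *Syt1*, oligodendrocytes would hold 334 CPM of *Grm7* and held 1098, above that mark in 10 of 10 libraries. OPCs held 763 against 536 (9 of 9 libraries above), while astrocytes held 110 against 230 and microglia 305 against 446, with 0 of 10 libraries above in either. Endothelial cells held 668 against 448 (5 of 7 libraries above), fibroblasts 811 against 555 (5 of 8) and ependymal cells 428 against 502 (2 of 9). In the edgeR fit *Grm7* was not called in OPCs (0.51 ± 0.22, adjusted p = 0.061), endothelial cells (-0.24) or fibroblasts (0.09). The thinned share of nuclei with a *Grm7* UMI was 77.8 ± 8.48% in neurons, 53.2 ± 8.95% in oligodendrocytes, 41.0 ± 10.1% in OPCs, 12.8 ± 11.5% in microglia and 10.2 ± 8.21% in astrocytes. Biol rep 4 lay far above the other libraries for *Grm7* in neurons and oligodendrocytes, and without it the differences were 3.12 in neurons and 1.48 in oligodendrocytes. *Grm7* in ependymal cells (-0.57 ± 0.25, adjusted p = 0.048) lay at the threshold and was lost without any one of biol rep 1 (-0.42), biol rep 2 (-0.54), female 3 (-0.41), female 4 (-0.59) or female 5 (-0.45).

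*Grm8*, another presynaptic group III receptor, had 363 to 770 CPM in neurons (median 482), and 8.52-fold more than the mean of the other types (log2 fold change 3.09 ± 0.21, adjusted p = 3.9e-22). In oligodendrocytes it had 11.5 to 96.6 CPM (median 36.9) and in OPCs 0 to 206 (median 10.4), both called lower (-0.93 ± 0.34, adjusted p = 0.014, and -1.32 ± 0.41, adjusted p = 0.0077). The oligodendrocyte call did not hold without biol rep 3 (-0.77), without biol rep 4 (-0.76) or in female libraries only (-0.48). The OPC call did not hold in biol rep libraries only (-0.49), in nuclei up to 1% mitochondrial (-0.33) or with no library term (-1.29). Astrocytes had 91.2 ± 26.9 CPM, not called, with 79.0 CPM before normalisation against 35.5 at the neuronal ratio and 10 of 10 libraries above it. The thinned share was 25.8 ± 3.38% of neurons (64.1% without thinning) against 2.69 ± 3.39% of microglia.

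*Grm4* showed a lower level with the same neuronal lead. It had 90.5 to 203 CPM in neurons (median 130) and means of 12.0 to 37.4 CPM in the other types, with a log2 fold change of 2.70 ± 0.14 in neurons (6.51-fold, adjusted p = 3.4e-29). Before normalisation *Grm4* had 104 CPM in neurons and means of 10.3 to 33.3 in the other types. *Grm2*, at 32.9 CPM in neurons, did not pass the filter on low counts. *Grm4* may therefore have passed it only through neurons, where it is high. Its calls are thus no separate support for the neuronal lead. Neurons exceeded ependymal cells, the next type, in 9 of 9 libraries (exact sign-flip permutation test, adjusted p = 0.0410). It was lower in oligodendrocytes (-1.30 ± 0.25, adjusted p = 1e-05, but -0.60 and not called in female libraries only) and microglia (-0.70 ± 0.28, adjusted p = 0.025, lost without biol rep 2 at -0.63, biol rep 3 at -0.52 or female 5 at -0.63). *Grm6* was counted 9 times in all, 7 times in neurons of 4 libraries and 2 times in astrocytes, and was at 0 in the other 6 types.

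The genes that carry the receptors' signals were read from lists of known partners. Of 11 tested genes of Gq signalling and the group I scaffold, 9 were higher and 1 lower in neurons (median log2 fold change 1.23, against 0.16 over all genes, of which 58.2% were called), among them *Frmpd4*, a scaffold protein that binds Homer (3.52), and the scaffold genes *Shank2* (2.63) and *Shank3* (2.47). In OPCs, the other type with high *Grm5*, 4 of 11 were higher and 1 lower (median 0.29 against -0.02, with 33.4% of all genes called), including the phospholipase *Plcb1* (1.38) and the scaffold *Homer2* (1.20). In oligodendrocytes 0 were higher and 7 lower (median -1.18 against -0.03, with 46.7% of all genes called). Of 10 genes of Gi/o signalling, 7 were higher and 1 lower in neurons, 3 and 4 in oligodendrocytes and 2 and 3 in astrocytes, against 58.2%, 46.7% and 41.1% of all genes called in either direction. Oligodendrocytes were high for the G protein subunits *Gnai1* (3.09) and *Gnao1* (2.21), and astrocytes for the adenylyl cyclases *Adcy2* (3.76) and *Adcy8* (2.82). *Elfn1*, a postsynaptic protein that binds group III receptors across the synapse, was higher in OPCs (4.33) and neurons (2.03). Of the 4 tested genes on the list set for group III partners, 2 were higher in each of these types. In neurons 1 of them, *Grasp*, was lower (-1.71).

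Neurons with more than 1000 genes (10307 of 10410) were then divided by clusters that took no *Grm* gene into account, and each cluster was put under the regional marker that it expressed. This gave 5779 *C1ql3* neurons, where the study places the PVT, and 938 *Adarb2* neurons, named by a gene that it uses for the mediodorsal thalamus. There were also 929 *Gad2* neurons (GABAergic), 865 *Nwd2* neurons (habenula) and 1796 remaining neurons. Clusters of the last stayed under 0.4 of the highest cluster for each of the 4 markers. The remaining neurons did not lack the markers, with 405 ± 71.4 CPM of *Adarb2* against 1913 in *Adarb2* neurons. They were also highest for *Cdh24* (28.6 CPM), which the study uses for the intermediodorsal thalamus. The study counts more mediodorsal nuclei than the *Adarb2* group holds. Whether the remaining neurons include mediodorsal ones was not tested. *Nwd2* neurons stood out by low *Grm4*, *Grm5*, *Grm7* and *Grm8* and high *Grm3*, and *Adarb2* neurons by high *Grm4*, *Grm5* and *Grm7* and low *Grm3* and *Grm8*. Of 30 pairs of 6 genes and 5 groups, 22 were called, with *Grm6* below the filter. Higher and lower counts of the 6 genes were 3 and 2 in *Adarb2* neurons (32.8% of 11188 genes called), 4 and 0 in *C1ql3* neurons (18.2%), 2 and 2 in *Gad2* neurons (21.3%), 1 and 4 in *Nwd2* neurons (42.0%) and 4 and 0 in the remaining neurons (15.1%). The mean of the other groups includes the low *Nwd2* neurons, so a group called higher need not be the highest. For *Grm4*, *Grm7* and *Grm8*, *C1ql3* neurons lay below the remaining neurons in 10 of 10 libraries, whereas *Grm2* had its highest mean in *C1ql3* neurons.

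**Figure D2:**
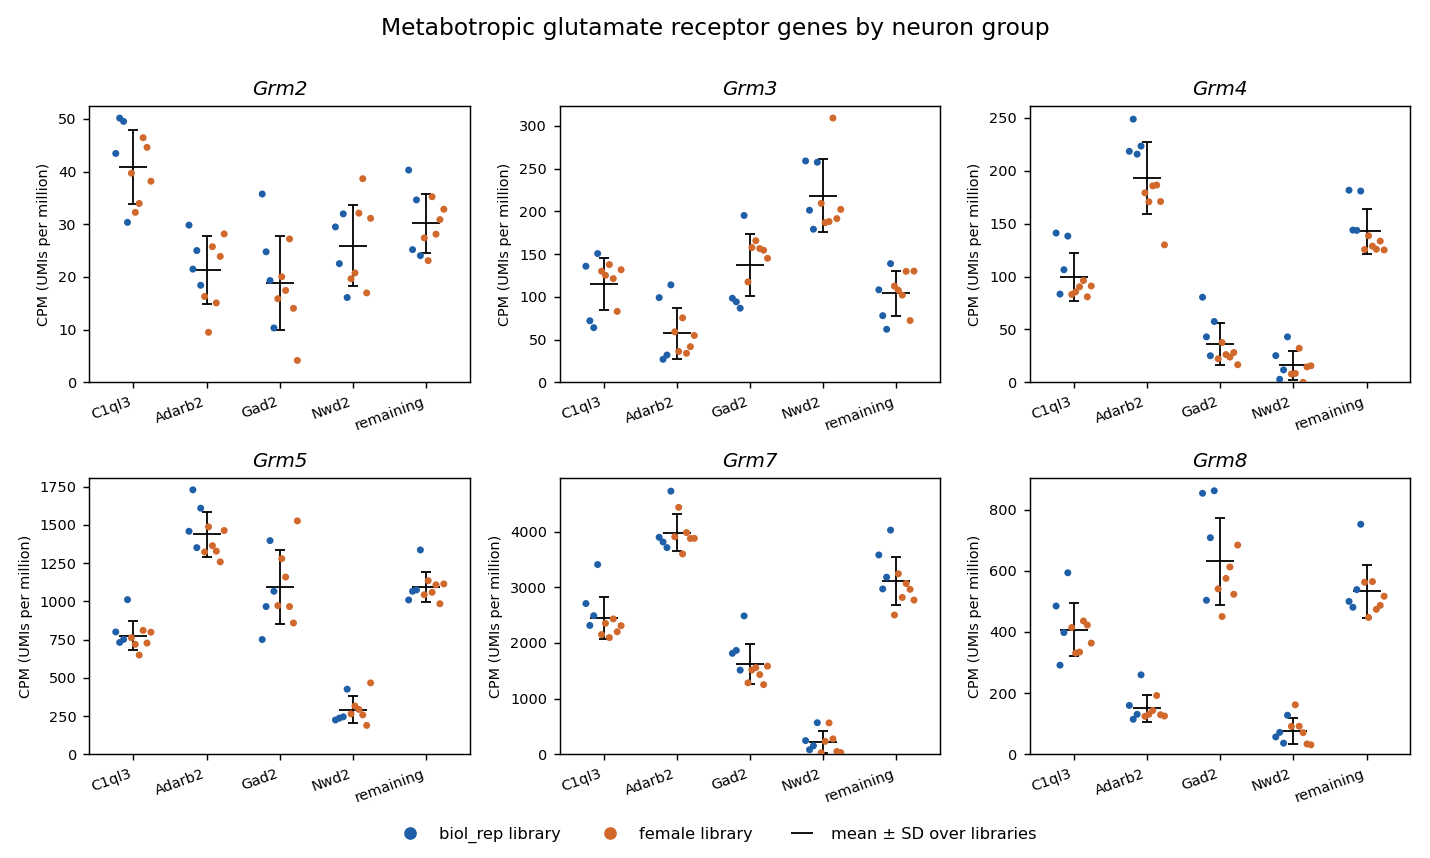
CPM of 6 receptor genes (y axis, TMM-normalised) in 5 neuron groups named by marker gene (x axis), with 1 point per library, biol rep libraries in blue and female libraries in orange, and the mean ± SD over libraries in black. For *Grm7* all *Nwd2* libraries (27.5 to 568) lie under all libraries of the other groups (1252 and above), and for *Grm3* the *Nwd2* mean (218) is the highest.

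*Grm5* had 1258 to 1729 CPM in *Adarb2* neurons (median 1411), 751 to 1526 in *Gad2* neurons (median 1019), 984 to 1336 in the remaining neurons (median 1070), 649 to 1011 in *C1ql3* neurons (median 757) and 189 to 467 in *Nwd2* neurons (median 261). The *Nwd2* libraries overlapped with no other group, and the *C1ql3* and *Adarb2* libraries did not overlap with each other. The log2 fold change was 1.02 ± 0.06 in *Adarb2* neurons (2.02-fold, adjusted p = 1.7e-20) and -1.95 ± 0.08 in *Nwd2* neurons (3.88-fold lower, adjusted p = 8.3e-28). The calls in the remaining neurons (0.52 ± 0.06) and *Gad2* neurons (0.51 ± 0.07) were near the size limit, and that in *Gad2* neurons fell under that limit without biol rep 3 (0.45), female 2 (0.49), female 3 (0.50) or female 6 (0.48). *Gad2* and remaining neurons did not differ beyond the spread (exact sign-flip permutation test, adjusted p = 0.789).

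For *Grm3* the order was nearly turned around. *Nwd2* neurons had 179 to 309 CPM (median 202), *Gad2* neurons 86.7 to 195 (median 150), *C1ql3* neurons 63.9 to 151 (median 128) and *Adarb2* neurons 26.8 to 114 (median 48.2). The *Nwd2* libraries overlapped with those of *Gad2* neurons and with no library of *C1ql3* or *Adarb2* neurons. *Nwd2* neurons were higher by 1.20 ± 0.09 (2.3-fold, adjusted p = 5.8e-17) and *Adarb2* neurons lower (log2 fold change -1.21 ± 0.10, adjusted p = 3.8e-15). The *Grm3* of *Nwd2* neurons was 221 CPM before normalisation against 8.26 at the astrocyte ratio and 6.96 at the oligodendrocyte ratio, above both in 10 of 10 libraries. The thinned share of nuclei with a *Grm3* UMI was 19.8 ± 3.48% in *Nwd2* neurons (66.1% without thinning) against 2.41% in microglia.

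*Grm2* differed less between groups. *C1ql3* neurons had 30.4 to 50.2 CPM (median 41.6) and were called higher (log2 fold change 0.82 ± 0.07, 1.76-fold, adjusted p = 2.2e-14), whereas *Gad2* neurons had 4.15 to 35.7 CPM (median 18.4) and were called lower (-0.70 ± 0.13, adjusted p = 1.3e-05). The ranges of these 2 groups overlapped. Remaining, *Nwd2*, *Adarb2* and *Gad2* neurons, with means of 30.2, 25.9, 21.3 and 18.9 CPM, were not told apart step by step (exact sign-flip permutation tests, adjusted p = 0.0625, 0.162 and 0.479).

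*Grm7* gave the largest difference of all. It had 3599 to 4727 CPM in *Adarb2* neurons (median 3888), 2502 to 4027 in the remaining neurons (median 3019), 2097 to 3409 in *C1ql3* neurons (median 2334), 1252 to 2486 in *Gad2* neurons (median 1536) and 27.5 to 568 in *Nwd2* neurons (median 193). No *Nwd2* library reached any library of another group. The log2 fold change was -3.73 ± 0.20 in *Nwd2* neurons (13.3-fold lower, adjusted p = 1.2e-23), 1.69 ± 0.13 in *Adarb2* neurons (3.22-fold, adjusted p = 7.5e-17), 1.22 ± 0.13 in the remaining neurons and 0.79 ± 0.13 in *C1ql3* neurons. After thinning to 1000 UMIs, 10.5 ± 7.51% of *Nwd2* neurons had a *Grm7* UMI (34.8% without thinning), a share near the 12.8 ± 11.5% of microglia, and 95.9% of *Adarb2* neurons did. The 216 CPM of *Grm7* in *Nwd2* neurons before normalisation compare with 1.31 at the astrocyte ratio and 6.77 at the oligodendrocyte ratio, and lay above both in 10 of 10 libraries. The part of RNA from other neurons in it was not tested. Without biol rep 4 the difference was -3.97.

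*Grm4* followed *Grm7* in the top and bottom groups at lower levels. *Adarb2* neurons had 130 to 249 CPM (median 186), the remaining neurons 125 to 182 (median 136), *C1ql3* neurons 80.8 to 141 (median 90.6), *Gad2* neurons 16.6 to 80.4 (median 27.1) and *Nwd2* neurons 0 to 42.9 (median 13.1). Neither of the 2 lowest groups overlapped with *C1ql3*, *Adarb2* or remaining neurons. The log2 fold change was 1.86 ± 0.09 in *Adarb2* neurons (3.64-fold, adjusted p = 3.6e-25), -1.26 ± 0.14 in *Gad2* neurons (adjusted p = 8.4e-11) and -2.61 ± 0.16 in *Nwd2* neurons (6.09-fold lower, adjusted p = 4.8e-21). All 4 steps of the order passed the exact test for *Grm4*, as they did for *Grm7* and *Grm8*, and 19 of the 24 such steps over the 6 genes did.

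*Grm8* broke this pattern, since *Adarb2* neurons were low and *Gad2* neurons high. *Gad2* neurons had 451 to 862 CPM (median 594), the remaining neurons 448 to 752 (median 508), *C1ql3* neurons 292 to 594 (median 406), *Adarb2* neurons 115 to 260 (median 131) and *Nwd2* neurons 31.1 to 162 (median 71.3). The upper 3 groups overlapped with each other, and no library of the lower 2 reached them. Its log2 fold change was 1.51 ± 0.09 in *Gad2* neurons (2.85-fold, adjusted p = 2.2e-21), -1.07 ± 0.10 in *Adarb2* neurons (adjusted p = 1.9e-13) and -2.38 ± 0.13 in *Nwd2* neurons (5.21-fold lower, adjusted p = 1.8e-23). *Gad2* neurons were above the remaining ones in 9 of 10 libraries (exact sign-flip permutation test, adjusted p = 0.0130).

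The 2 *Grm8* results for *Gad2* and *Adarb2* neurons depended on how the groups were formed. When nuclei were gated one by one on the 4 marker genes, no remaining group was left. In that gate 110 nuclei over all libraries counted as *Gad2* neurons, and 2 libraries held enough of them for a sum. These 2 libraries had a mean of 324 CPM of *Grm8*, against 654 in the cluster, both before normalisation. The difference turned to -0.15. Gated *Adarb2* neurons (1826 nuclei) had 256 ± 58.6 CPM of *Grm8*, against 134 ± 35.6 in the cluster, both before normalisation, and their difference turned to 0.06. Gated *Nwd2* neurons (738 nuclei) had 459 ± 294 CPM of *Grm7* and 190 ± 95.2 of *Grm8*, against 216 ± 191 and 77.3 ± 41.1 in the cluster before normalisation, and both were still called lower, by a log2 fold change of -2.49 and -0.84. The cluster of *Gad2* neurons had a summed 110 ± 82.6 CPM of GABAergic markers, from 0 to 286 in single libraries, and 212 ± 163 CPM of habenular markers. The same cluster had 301 ± 46.5 CPM of PVT markers, against 808 in *C1ql3* neurons. Its *Adarb2* was 304 ± 153 CPM, against 1913 in *Adarb2* neurons. Both values lay above its GABAergic and habenular sums. The cluster therefore rests on few GABAergic marker counts, and the part of other neurons in its values was not tested. *Grm6* had 5 UMIs in *C1ql3* neurons, 1 in *Nwd2*, 1 in remaining and 0 in *Adarb2* and *Gad2* neurons.

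The *C1ql3* neurons fell into 3 clusters of their own in the clustering of all neurons, and the receptors differed between them. *Grm8* had a mean of 535 ± 93.7 CPM before normalisation in the largest (3638 nuclei, led by *Col12a1*), 199 ± 41.6 in the next (1669 nuclei, led by *Npsr1*) and 108 ± 38.5 in the smallest (472 nuclei, with *Glis3*, *Maf* and *Cadps2* at the top). *Grm4* had 127 ± 20.3, 57.1 ± 13.8 and 28.35 ± 15.95 CPM in the same order, and *Grm5* 922 ± 71.5, 568 ± 79.6 and 365 ± 59.9. *Grm3* went the other way, with 93.8 ± 30.8 CPM in the largest, 149 ± 34.1 in the next and 151 ± 32.8 in the smallest. These are descriptions of clusters, given without a test.

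Partner genes in *Nwd2* neurons went both ways. Unlike the *Grm* genes, partner genes were not left out of the clustering. They may have helped to form the groups they are compared between. Of 11 tested genes of Gq signalling and scaffold, 2 were higher and 6 lower (median -0.90 against 0.05 over all genes, of which 42.0% were called), among them *Plcb1* (-2.75), the calcium release channel *Itpr1* (-2.55) and *Shank3* (-1.57). Of 10 Gi/o genes, 2 were higher and 5 lower, with the cyclases *Adcy5* (-2.95) and *Adcy1* (-2.77) and the subunit *Gnai1* (-1.90) among the latter. *Elfn1* was higher (4.28), the single one called of the 4 tested genes on the list set for group III partners. The vesicular glutamate transporter *Slc17a7* was higher too (4.40), while 4 of 6 genes of glutamate loading and uptake were lower. In *Adarb2* neurons, where *Grm5* was highest, 7 of 11 Gq and scaffold genes were higher and 0 lower (median 0.83 against -0.05, with 32.8% of all genes called), with *Plcb4* at 1.42 and *Shank3* at 1.40. In *C1ql3* neurons 1 was higher and 1 lower (18.2% of all genes called), and *Elfn1* (-1.98) and *Slc17a7* (-3.82) were lower there. The groups they were compared with include *Nwd2* neurons, which were high for both genes. *Elfn1* was lower in *Adarb2* (-2.38) and remaining neurons (-0.97) too, and higher in *Gad2* neurons (1.06). *Slc17a7* was lower in *Gad2* (-1.06) and remaining neurons (-1.11) too, and higher in *Adarb2* neurons (1.59).

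Within the *C1ql3* neurons, clusters were put under *Col12a1* (682 nuclei), *Cadps2* (992 nuclei) and *Npsr1* (809 nuclei), genes that mark PVT subtypes in the study, and 3296 nuclei remained. Against the mean of the other groups *Grm8*, *Grm5*, *Grm4* and *Grm7* were higher in *Col12a1* neurons, and *Grm8*, *Grm4*, *Grm5* and *Grm2* were lower in *Cadps2* neurons. Of 24 pairs of 6 genes and 4 groups, 13 were called. Higher and lower counts of the 6 genes were 4 and 1 in *Col12a1* neurons (11.8% of 9857 genes called), 1 and 4 in *Cadps2* neurons (14.4%), 0 and 2 in *Npsr1* neurons (9.42%) and 1 and 0 in the remaining ones (6.99%). The median log2 fold change of the 6 genes was 0.85 in *Col12a1* neurons against -0.02 over all genes, and -0.81 in *Cadps2* neurons against 0.03.

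**Figure D3:**
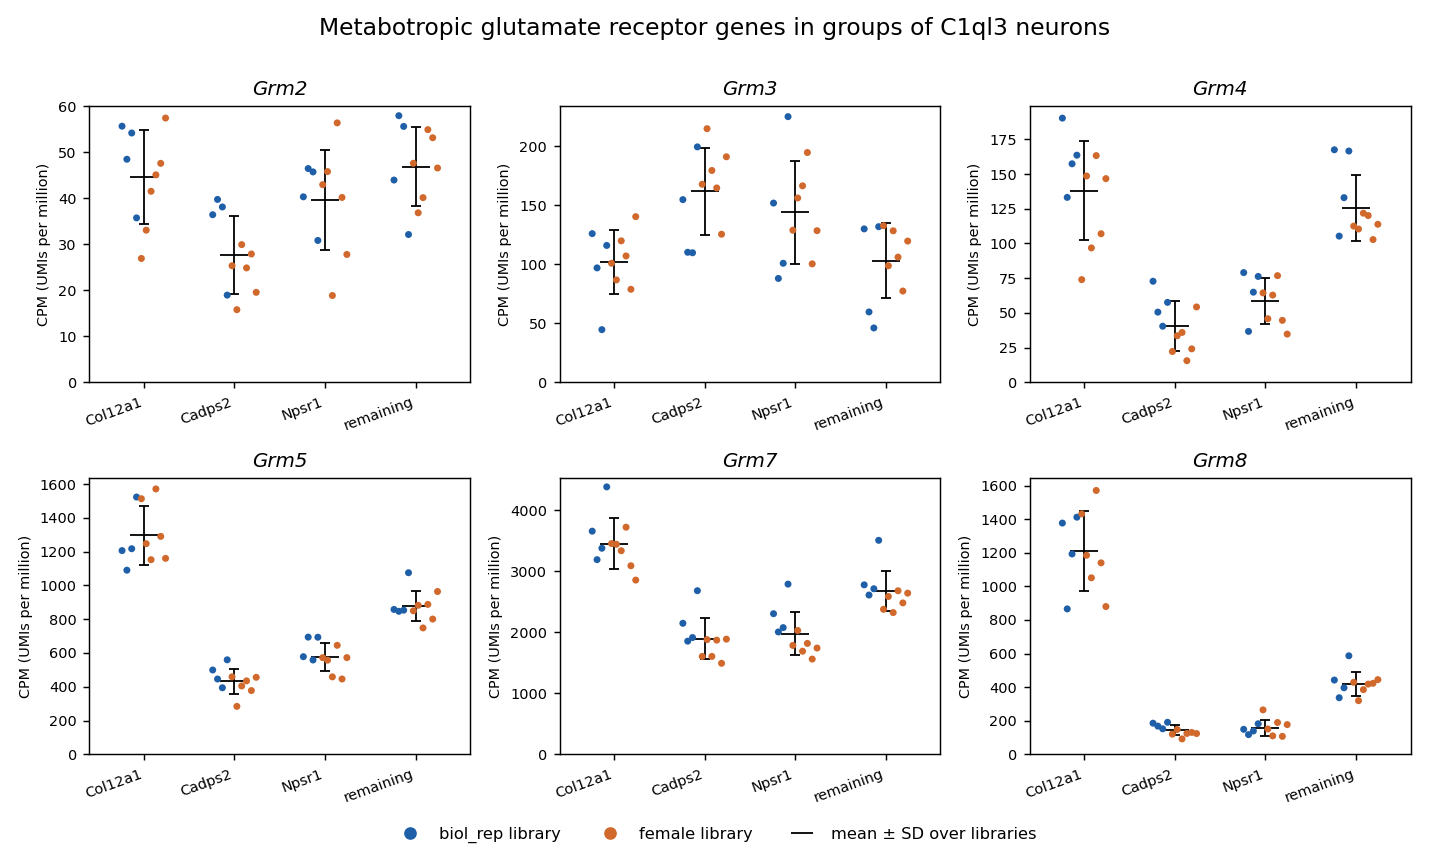
CPM of 6 receptor genes (y axis, TMM-normalised) in 4 groups of *C1ql3* neurons named by marker gene (x axis), with 1 point per library, biol rep libraries in blue and female libraries in orange, and the mean ± SD over libraries in black. For *Grm8* all *Col12a1* libraries (866 to 1571) lie above all libraries of the other groups (587 and below), and *Grm3* is the gene with higher means in *Cadps2* (162) and *Npsr1* (144) neurons.

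*Grm8* separated the groups most. It had 866 to 1571 CPM in *Col12a1* neurons (median 1189), 320 to 587 in the remaining neurons (median 421), 107 to 265 in *Npsr1* neurons (median 150) and 91.7 to 191 in *Cadps2* neurons (median 139). The *Col12a1* libraries overlapped with no other group, and the last 2 groups overlapped with each other and with none above. Its log2 fold change was 2.52 ± 0.06 in *Col12a1* neurons (5.73-fold, adjusted p = 3.7e-52), -1.51 ± 0.07 in *Cadps2* neurons (2.84-fold lower, adjusted p = 6.8e-32) and -1.50 ± 0.07 in *Npsr1* neurons (adjusted p = 1.6e-29). *Col12a1* neurons exceeded the remaining ones in 10 of 10 libraries by a mean of 1.52 on the log2 scale (exact sign-flip permutation test, adjusted p = 0.0044), while *Npsr1* was above *Cadps2* in 5 of 10 (adjusted p = 0.507 by the same exact test).

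Thinned to 1000 UMIs, 63.6 ± 7.01% of *Col12a1* neurons, 30.2 ± 3.65% of remaining, 12.5 ± 2.07% of *Cadps2* and 12.4 ± 2.77% of *Npsr1* neurons had a *Grm8* UMI, with 2.69 ± 3.39% in microglia (98.7%, 81.0%, 50.1% and 48.3% of the 4 neuron groups without thinning). Gating single nuclei on the marker genes gave the same order, with 883 ± 174 CPM of *Grm8* in 999 *Col12a1* nuclei and 157 ± 33.0 in 1216 *Cadps2* nuclei. These are values before normalisation, where the clusters had 1130 and 142 CPM.

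*Grm5* stepped down through all 4 groups. It had 1090 to 1571 CPM in *Col12a1* neurons (median 1232), 748 to 1075 in the remaining (median 855), 446 to 694 in *Npsr1* (median 572) and 284 to 559 in *Cadps2* neurons (median 440). Only *Npsr1* and *Cadps2* neurons overlapped, and each of the 3 steps held in 10 of 10 libraries (exact sign-flip permutation tests, adjusted p = 0.0044 each). *Col12a1* neurons were higher (log2 fold change 1.10 ± 0.05, 2.15-fold, adjusted p = 1.4e-34) and *Cadps2* neurons 2.01-fold lower (adjusted p = 3.7e-30), while *Npsr1* neurons (-0.45) were under the size limit.

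*Grm7* moved the same way with smaller folds. It ranged from 2856 to 4384 CPM in *Col12a1* neurons (median 3411) and from 1492 to 2682 in *Cadps2* neurons (median 1876), with no overlap between the 2, and was called in *Col12a1* neurons alone of the 4 groups (0.68 ± 0.04, adjusted p = 2.8e-28). *Cadps2* neurons had a log2 fold change of -0.48, just under the size limit. *Grm4* had 73.9 to 190 CPM in *Col12a1* neurons (median 148), 103 to 168 in the remaining ones (median 117) and 15.5 to 72.8 in *Cadps2* neurons (median 38.1). *Col12a1* (1.01 ± 0.07, adjusted p = 1.4e-21) and remaining neurons (0.86 ± 0.06, adjusted p = 4.8e-23) were both higher for *Grm4* and were not told apart (exact test, adjusted p = 0.398), and *Cadps2* neurons were lower (-1.25 ± 0.08, adjusted p = 6.3e-24). The *Grm4* call in *Npsr1* neurons (-0.61 ± 0.08, adjusted p = 9.4e-10) turned to 0.09 in the gate on single nuclei. That gate had 112 *Npsr1* nuclei over all libraries, and 2 libraries held enough of them for a sum. The *Npsr1* call also fell under the size limit in a finer clustering (-0.49). The *Grm4* call in the remaining neurons fell under that limit in the gate (0.48).

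The group II genes ran differently. *Grm3* had 110 to 215 CPM in *Cadps2* neurons (median 166) and 44.6 to 140 in *Col12a1* neurons (median 104), ranges that overlap. *Cadps2* neurons were called higher (log2 fold change 0.53 ± 0.07, adjusted p = 1.2e-10) and *Col12a1* neurons lower (-0.55 ± 0.08, adjusted p = 6.2e-08), both close to the size limit. The first fell under the limit without biol rep 3 (0.47) or female 2 (0.50) and the second without biol rep 3 (-0.48) or biol rep 4 (-0.48). *Grm2* was lower in *Cadps2* neurons (15.8 to 39.7 CPM, median 26.6, log2 fold change -0.61 ± 0.09, adjusted p = 1.3e-08) and was not called in the other 3 groups, which had means of 39.5 to 46.9 CPM. One cluster of *C1ql3* neurons was led by immediate early genes (*Fosb*, *Npas4* and *Fos*). It had 143 nuclei over all libraries, and 5 libraries held enough of them for a sum. Over these 5 it had 532 ± 123 CPM of *Grm8*, 873 ± 108 of *Grm5* and 57.0 ± 12.0 of *Grm2* before normalisation. The largest cluster of the remaining neurons had 458 ± 79.6, 855 ± 75.5 and 51.2 ± 13.9.

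**Figure D4:**
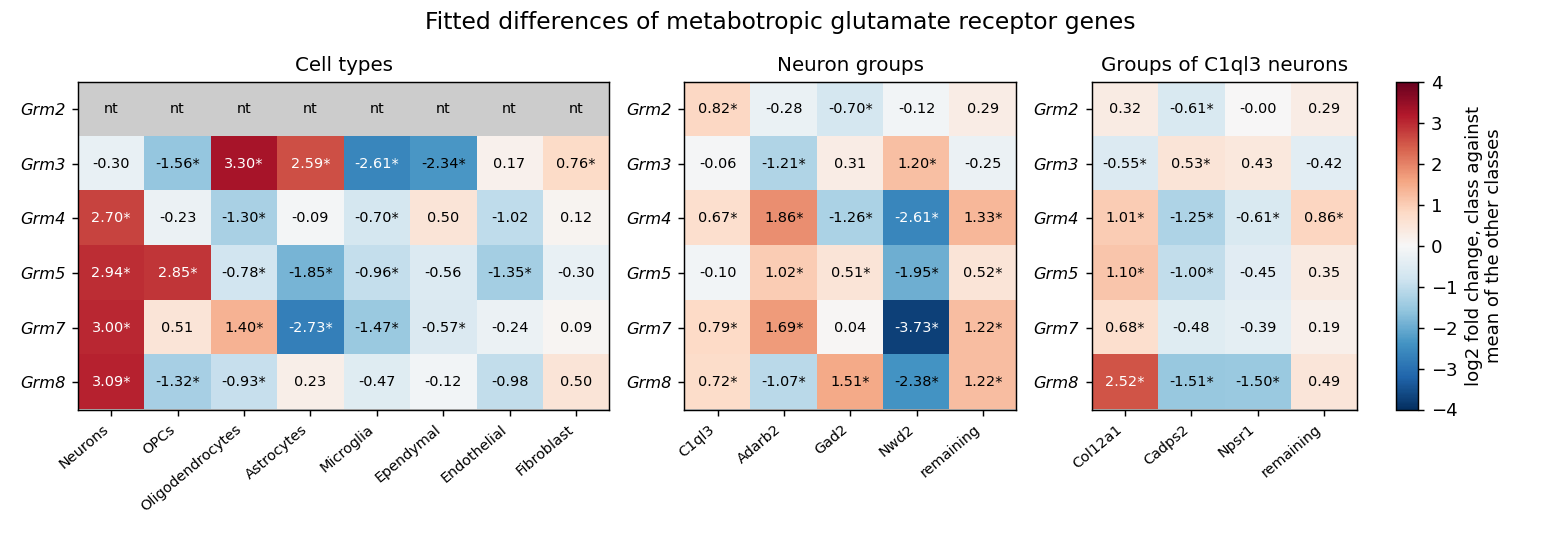
Fitted log2 fold changes (colour and number, red higher and blue lower) of 6 receptor genes (rows) in each cell type, neuron group and group of *C1ql3* neurons (columns) against the mean of the other classes in the same panel. A star marks an adjusted p under 0.05 with a log2 fold change beyond 0.5, and nt marks a gene that was not tested. *Grm3* runs against the other genes in the *Nwd2* column (1.20 against -3.73 for *Grm7*), and *Grm8* has the largest value in the *Col12a1* column (2.52).

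Partners in *Col12a1* neurons included 4 higher and 1 lower of 11 Gq and scaffold genes (median 0.16 against -0.02, with 11.8% of all genes called), with *Frmpd4* (1.48), *Homer2* (0.87) and *Itpr1* (0.67) among the higher, and 2 higher and 0 lower of 10 Gi/o genes, *Adcy2* (2.17) and *Adcy1* (0.68). In *Cadps2* neurons (14.4% of all genes called) 1 Gq and scaffold gene was higher and 3 were lower, with *Frmpd4* at -3.06, and 3 of 10 Gi/o genes were lower, *Adcy2* (-3.03), *Adcy1* (-1.07) and *Adcy8* (-0.62). *Rgs7*, a brake on Gi/o signals, was 0.82 in *Col12a1* and -1.30 in *Cadps2* neurons. Here too partner genes were not left out of the clustering that made the groups.

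Between the 2 sets of libraries none of the 6 tested receptor genes was called in neurons, with 13.6% of 15278 genes called in the same comparison. *Grm4* had the largest difference, with 121 ± 25.8 CPM in the biol rep libraries (n = 4) and 94.99 ± 10.98 in the female ones (n = 6), a log2 fold change of -0.35 ± 0.14 (female against biol rep, -0.23 without biol rep 4) at an adjusted p of 0.13 (edgeR). It was the 1 gene of the 6 at an unadjusted p under 0.05, and DESeq2 called 0 as well. The other 5 lay between -0.18 (*Grm2*) and 0.06 (*Grm3*) on the log2 scale. *Grm5* had 896 ± 149 and 874 ± 76.4 CPM, and *Grm7* had 2665 ± 598 and 2361 ± 305. Set, sex, depth (median 12586 to 21085 UMIs per neuron against 5666 to 9770) and the genes counted cannot be told apart here. Whether the differences between classes changed with the set was tested for 102 effects, of which 5 had an unadjusted p under 0.05 and 0 an adjusted one (lowest 0.583).

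The genes with the most similar pattern were ranked by Pearson correlation of log2 CPM over 143 sums of 15 classes, as a description across points that share libraries. *Grm5* was closest to *Rgs7* (0.925), *Rims1* (0.91) and *Fgf12* (0.897), and *Grm7* to the potassium channel genes *Kcnq3* (0.892) and *Kcnt2* (0.868) and to *Spock3* (0.869). *Grm4* was closest to *Adgra1* (0.831) and *Rgs7* (0.828), *Grm8* to *Lingo2* (0.83) and the sodium channel gene *Scn9a* (0.815), and *Grm2* to *Celf4* (0.8) and *Rtbdn* (0.796). *Grm3* had the lowest top value, 0.701 with *Ptk2*, in a comparison of 13713 genes.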

How the data were processed

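Nuclei were counted by the authors with Cell Ranger (6.1.1 and mm10 in the submitters' processing notes), who deposited whole UMI counts of 33502 genes in 20503 nuclei, with no normalisation. Percent of mitochondrial UMIs, cell type names and library names (other metadata) were deposited by the authors, who had already removed nuclei above 5%, doublet clusters and poor clusters, so no doublet caller was run here. A further 22 metadata columns were not used. The members and lists were chosen with earlier results of these data known.

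UMIs were summed per library and class, and sums under 10 nuclei were left out. For the test of a class against the other classes, edgeR 4.0.16 in R 4.3.3 was used with TMM factors, filterByExpr, quasi-likelihood and a term for the library. Calls needed a Benjamini-Hochberg adjusted p under 0.05 and a change beyond 0.5 in log2. Library sets were compared in neurons with 1 sum per library. CPM are TMM-normalised unless said otherwise. Those of marker genes and of nuclei gated one by one are before normalisation. *Grm6* and, in cell types, *Grm2* come from a fit with no filter. Neighbouring levels were compared on log2(CPM + 1) by exact two-sided sign-flip permutation over libraries, adjusted within each family of pairs.

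Neurons were clustered without *Grm* genes in Python 3.11.15 (Pearson residuals, Harmony, Leiden with leidenalg 0.10.2), and a cluster took a marker at 0.4 or more of its highest cluster level. Cell type markers, partner lists and the rule for named genes (all members and the 3 largest changes called in each partner list, examples given here) were set with the design. Shares of nuclei are expected values after thinning to 1000 UMIs. The fit was tested on simulated data. P-values measure the spread between libraries, and nothing in the labels says whether mice were shared between them. Alternatives were DESeq2 1.42.0, RLE factors, no filter, no library term, each library left out, each set alone, sums of 30 nuclei, other clusterings, a gate on single nuclei, nuclei up to 1% mitochondrial and genes counted in both sets.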

Additional observations from a re-analysis of the deposited data

Results flagged for a closer look

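In 22 of 102 groups of 7 to 10 library values, the highest library lay beyond Dixon's 95% limit. For independent, normally spread values chance gives about 5%, or 1 in 20. The groups share libraries and some are parts of others, so the 22 are not separate surprises. Most of the libraries so marked were biol rep 4. For *Grm7* it had 449 CPM in astrocytes (nearest other library 179), 2096 in fibroblasts (968), 1123 in microglia (454), 4801 in neurons (3400), 2480 in OPCs (931, from 18 nuclei) and 2367 in oligodendrocytes (1323). Among neuron groups its *Grm7* was 3409 CPM in *C1ql3* (nearest 2708) and 2486 in *Gad2* neurons (1866), and 3508 in the remaining *C1ql3* neurons (2778). For *Grm8* it had 770 CPM in neurons (525), 206 in OPCs (76.0, from 30 UMIs), 752 in the remaining neurons (565) and 587 in the remaining *C1ql3* neurons (445). For *Grm5* it had 188 CPM in astrocytes (102), 1011 in *C1ql3* neurons (810) and 1336 in the remaining neurons (1135), and for *Grm4* 106 in fibroblasts (49.2, from 6 UMIs). Neuronal marker RNA was highest in the same library in 6 of 7 non-neuronal types, for example 579 CPM in astrocytes against 125 to 396 in the others. Its part in these values was not tested.

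The other libraries so marked rest mostly on few counts or nuclei. *Grm2* had 36.6 CPM in endothelial cells of biol rep 3 (8 UMIs, nearest other library 0) and 7.54 in its fibroblasts (1 UMI, nearest 0). *Grm3* had 768 CPM in the 10 endothelial nuclei of biol rep 1 (nearest 359), and *Grm4* had 82.5 CPM in microglia of biol rep 1 (41.1). *Grm8* had 265 CPM in *Npsr1* neurons of female 1 (190).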

How the results depend on the processing

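Across cell types, 23 of 40 pairs of gene and type were called. Leaving out 1 library gave 21 to 24, and nuclei up to 1% mitochondrial (13791 nuclei, 7 types) gave 15 of 35, with *Grm7* in ependymal cells turned to 0.14. Of 755 single differences under the alternatives, 47 lost the call, 7 gained it and 1 with a call reversed. The other 700 kept their state as called or not called. Pairs called neither in the main fit nor in the alternative count among these even where the sign changed. RLE factors moved the median of all genes in neurons from 0.16 to -0.03, and the split of calls there from 3426 higher and 2304 lower to 2797 and 2845. Under them *Grm3* in neurons was called lower (-0.51). Ependymal cells gained calls for *Grm5* without biol rep 3 (-0.77) or female 6 (-0.72) and for *Grm4* without female 5 (0.70). In endothelial cells the split went from 1710 and 2256 to 1937 and 1720, and in fibroblasts from 1057 and 1127 to 1174 and 682.

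Among neuron groups leaving out 1 library gave 21 to 22 calls of 30, and the gate on single nuclei gave 14 of 24. The gate turned *Grm8* to 0.0594 in *Adarb2* and -0.15 in *Gad2* neurons. By the same count 642 of 654 differences kept their state as called or not called. Among groups of *C1ql3* neurons leaving out 1 library gave 11 to 14 calls of 24. The gate turned *Grm4* in *Npsr1* neurons to 0.0936. *Grm8* in the remaining neurons passed the size limit without female 1 (0.52), female 2 (0.52) or female 4 (0.50). Here 503 of 528 differences kept their state as called or not called.

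Thinning to 2000 UMIs or not at all moved the shares with a UMI, for *Grm8* to 83.9% or 98.7% of *Col12a1* and 21.9% or 50.1% of *Cadps2* neurons, for *Grm5* to 80.1% or 85.7% of OPCs, and for *Grm3* to 80.1% or 82.9% of oligodendrocytes and 33.9% or 66.1% of *Nwd2* neurons. *Grm7* in *Nwd2* neurons had 34.8% without thinning.

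Between library sets every alternative called 0 receptor genes, the range without 1 library being 0 to 0. Over all genes, those counted in both sets left 255 higher and 177 lower in female libraries, against 952 and 1126. This filter dropped genes with few UMIs in either set, mitochondrial genes and genes with a large CPM ratio between the sets. Part of the fall was therefore fixed in advance. Replicate numbers 1 to 4 occur in both sets, but same-numbered libraries deviated with correlations of -0.08, -0.07, -0.12 and 0.10 and none correlated best with its own number. So few correlations cannot decide whether such libraries share more than a number, and the main fit did not pair them. A fit with the number as a block called 0 receptor genes, and 746 genes higher and 1037 lower in all. Few counts (9 UMIs) limit what can be said of *Grm6*. Few nuclei limit the values in OPCs, ependymal cells, endothelial cells and fibroblasts.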
